A study of Mus musculus with 5 samples.

Results

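Cell cycle and DNA replication genes were followed in the livers of 5 groups of mice. The set holds 46 genes of the 28630 gene names on the array, taken by name: cyclins and E2F factors that open S phase (6 genes), replication licensing (9), DNA synthesis and nucleotide supply (6), and mitosis (25). The first 3 of these roles, 21 genes, are called G1 and S phase genes below. A gene was represented by its brightest probe, with Cdk1 carried on the array under its older name Cdc2a. Symbols are those of the array annotation.

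All mice were male C57BL/6J aged 25 weeks. The control group was untreated. HFHFr-F mice ate a high-fat, high-fructose diet for 20 weeks and are labelled as severely insulin resistant. The other groups ate that diet for 16 weeks and were switched for the last 4 weeks. HFHFr-FA mice stayed on the diet and received all-trans retinoic acid, a vitamin A derivative that acts through nuclear receptors, and are labelled as not insulin resistant with slight steatosis. HFHFr-N mice went back to normal food and are labelled as insulin resistant. HFHFr-NA mice went back to normal food with all-trans retinoic acid and are labelled as recovered. A pool of liver RNA from 5 mice stands for each group and was hybridised to 1 array, so each value below is 1 measurement of 1 pool. No spread between mice can be had, no test between groups was possible, and differences are given by size only. The spots of 1 probe on 1 array give the one measured error: the SD of a log2 ratio from them was 0.098 to 0.11. It leaves out the spread between mice, extractions and arrays.

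Values are the processed signal of a probe divided by the 75th percentile of its array, so 1 is the level of that percentile, and differences are log2 ratios of such values. Signals are not comparable between genes, since probes differ in brightness. Each array carried 43379 non-control spots, of which 46.7% to 49.4% were well above background, and no spot was saturated. The HFHFr-FA array lay on a slide of its own with its own scan, and the other 4 arrays shared a slide, and for HFHFr-FA the effects of slide and of treatment cannot be told apart. All 10 hepatocyte markers were well above background on every array, which matches the labelled tissue. In whole liver RNA, fewer cells of a type and less RNA per cell cannot be told apart.

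In a cycling cell, D cyclins and then cyclin E inactivate the RB family and release E2F factors, which switch on the genes of DNA replication. The MCM helicase is loaded on origins with the help of Cdc6 and Cdt1, and geminin holds Cdt1 back. Later the MuvB complex with B-Myb and Foxm1 switches on the mitotic genes, whose promoters carry CHR and CCAAT elements. Most hepatocytes of an adult mouse liver are quiescent, and they re-enter the cycle after injury or loss of tissue. Many of these genes also mark dividing immune and other non-parenchymal cells.

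The promoters of the genes that carry the results are shown first, since the S phase and the mitosis genes differ in them. RefSeq windows of 300 bases, from 250 before to 50 after a start site on GRCm38.p6, were matched for 36 of the 46 genes. The E2F motif was searched as TTGGCGC or TTCCCGC or TTCGCGC or TTGCCGC, and the CHR motif as TTTGAA and TTCGAA, both on either strand. TTCGAA is its own reverse complement, and neighbouring E2F matches can overlap. Capitals mark E2F letters in the Mcm windows and CHR letters in the Cdc20 and Mki67 windows. Mcm6 (chr1:128359656-128359955, minus strand) and Mcm5 (chr8:75109259-75109558, plus strand) differed most between the pools among the helicase subunits, and Mcm7 (chr5:138171834-138172133, minus strand, 1 of its 2 windows) was level. Cdc20 (chr4:118437294-118437593, minus strand) and Mki67 (chr7:135716330-135716629, minus strand) stand for the mitosis genes.
Mcm6: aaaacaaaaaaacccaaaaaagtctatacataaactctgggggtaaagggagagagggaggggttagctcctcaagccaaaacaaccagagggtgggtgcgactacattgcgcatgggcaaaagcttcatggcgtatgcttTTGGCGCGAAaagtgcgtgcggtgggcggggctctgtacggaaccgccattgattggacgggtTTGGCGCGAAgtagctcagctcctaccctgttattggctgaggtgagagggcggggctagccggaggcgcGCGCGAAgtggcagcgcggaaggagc
Mcm5: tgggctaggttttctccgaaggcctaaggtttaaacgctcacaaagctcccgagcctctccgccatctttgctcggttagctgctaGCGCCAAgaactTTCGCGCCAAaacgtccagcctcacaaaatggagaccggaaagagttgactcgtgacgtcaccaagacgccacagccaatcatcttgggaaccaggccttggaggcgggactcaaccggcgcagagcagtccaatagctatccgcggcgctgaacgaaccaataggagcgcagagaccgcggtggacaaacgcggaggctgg
Mcm7: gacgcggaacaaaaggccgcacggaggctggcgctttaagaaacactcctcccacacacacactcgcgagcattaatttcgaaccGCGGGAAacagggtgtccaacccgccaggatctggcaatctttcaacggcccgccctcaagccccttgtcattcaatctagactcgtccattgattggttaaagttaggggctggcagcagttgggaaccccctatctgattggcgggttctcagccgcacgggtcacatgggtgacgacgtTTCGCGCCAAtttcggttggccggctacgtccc
Cdc20: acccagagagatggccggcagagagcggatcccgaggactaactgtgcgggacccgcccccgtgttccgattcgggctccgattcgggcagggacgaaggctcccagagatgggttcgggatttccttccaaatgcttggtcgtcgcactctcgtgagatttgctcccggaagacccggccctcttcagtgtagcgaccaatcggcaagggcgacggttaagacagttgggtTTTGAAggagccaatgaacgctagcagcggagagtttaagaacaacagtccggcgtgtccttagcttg
Mki67: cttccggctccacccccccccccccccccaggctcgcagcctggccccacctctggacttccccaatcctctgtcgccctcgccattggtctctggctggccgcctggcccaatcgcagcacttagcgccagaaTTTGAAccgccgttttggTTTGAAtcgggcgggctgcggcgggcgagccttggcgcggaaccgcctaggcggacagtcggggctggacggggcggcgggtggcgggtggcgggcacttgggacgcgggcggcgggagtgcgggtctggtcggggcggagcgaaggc
The Mcm6 window held 5 E2F matches, in 2 overlapping pairs before the start site and 1 after it. The Mcm5 window held 3 and this Mcm7 window also 3. Cdc20 held 1 CHR match and 2 CCAAT matches, and Mki67 held 2 CHR matches, 3 CCAAT matches and an uncapitalised E2F match.

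Of the 16 G1 and S phase genes with a window, 10 (62.5%) held E2F letters, against 10.9% of 27025 genes. Only 3 (15.0%) of 20 mitosis genes did. Among the 7 licensing genes with a window the count was 6 (85.7%), with Mcm2 the exception. The CHR letters ran the other way, in 16 mitosis genes (80.0%) and 3 G1 and S phase genes (18.8%), against 21.7% of all genes. CCAAT was found in 18 mitosis genes (90.0%), 10 G1 and S phase genes (62.5%) and 41.1% of all genes. Tk1, Tyms, Pcna, Ccne1, E2f1, Birc5, Cenpe and Nusap1 held neither E2F nor CHR letters in their windows. Letters outside the windows, or at start sites without a window, were not searched, so these promoters may hold them elsewhere. A match is a description of the letters and not a bound site.

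**Figure D1:**
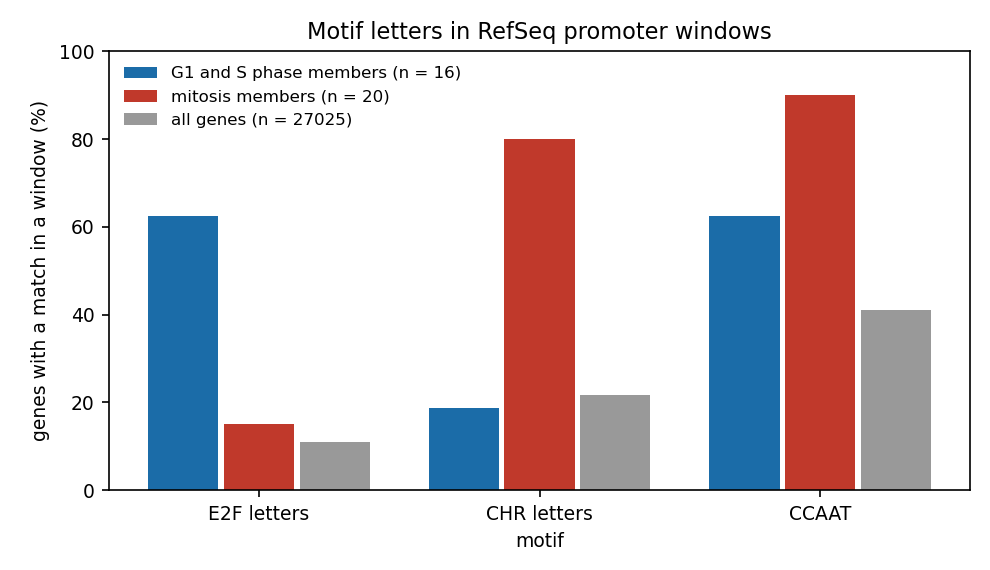
Share of genes (%, y axis) whose RefSeq promoter window holds the E2F, CHR or CCAAT letters (x axis), for G1 and S phase genes (blue), mitosis genes (red) and all genes (grey). E2F letters were in 62.5% of the G1 and S phase genes and 15.0% of the mitosis genes, and CHR letters in 18.8% and 80.0%.

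Of the 46 genes, 29 were well above background on all 5 arrays, 8 on 1 to 4 arrays and 9 on none. The 9 were Ccne2, Cdc6, Foxm1, Aurkb, Bub1b, Top2a, Kif11, Tpx2 and Racgap1. By array, 29 genes were measured in control, 36 in HFHFr-F, 34 in HFHFr-FA, and 31 each in HFHFr-N and HFHFr-NA. Of the 29 measured on every array, 20 (69.0%) were highest in HFHFr-F, against 16.5% of the 13132 genes measured on every array. The lowest pool was HFHFr-FA for 12 genes (41.4%, against 29.0% of all genes) and control for 11 (37.9%, against 16.4%). The 12 were all G1 and S phase genes, while no mitosis gene was lowest in HFHFr-FA. Of the 37 genes measured on at least 1 array, 18 had further probes, and for 13 of these at least 1 further probe was not well above background on any array.

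**Figure D2:**
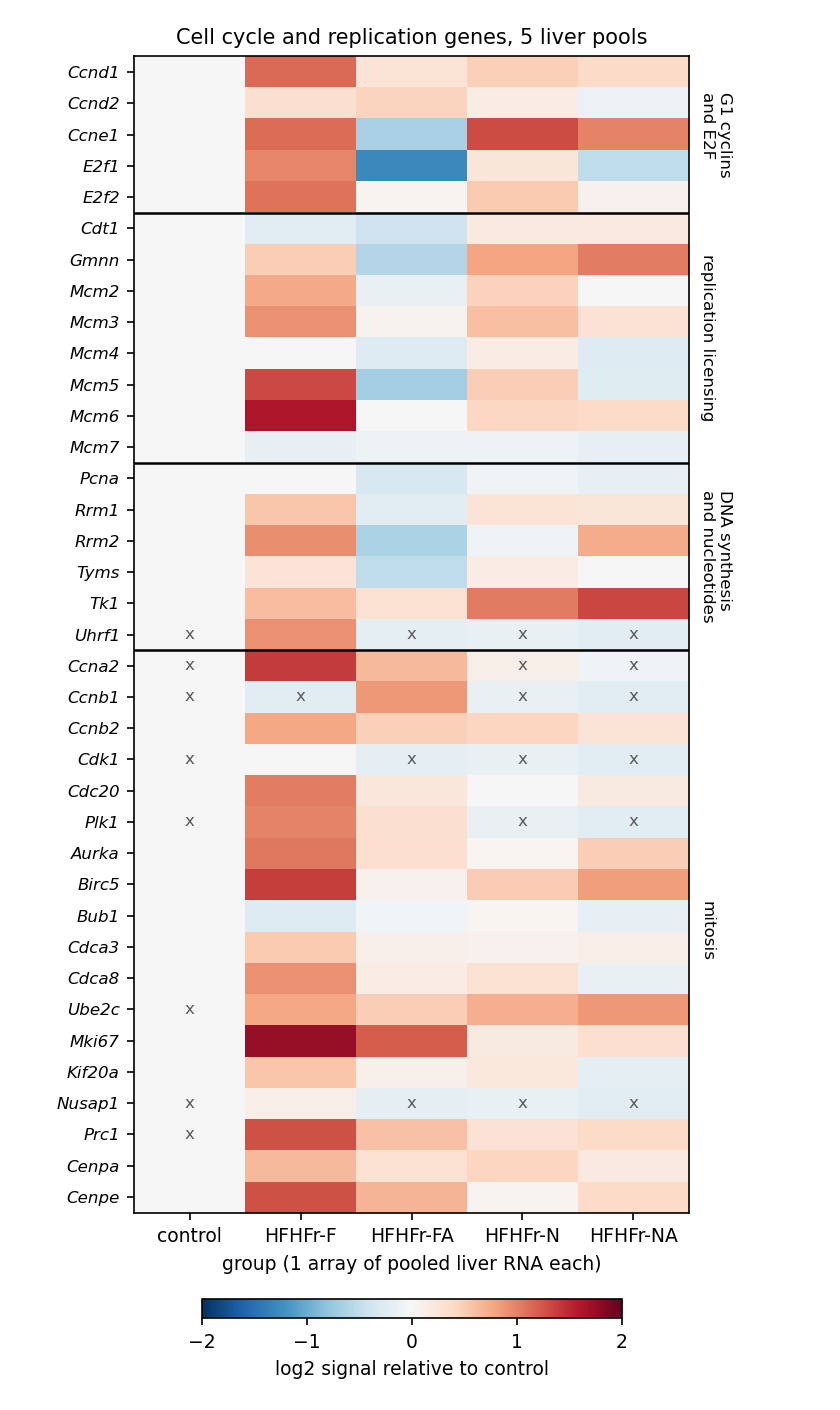
Log2 signal relative to control (colour) of the 37 genes measured on at least 1 array (rows, by role) in the 5 groups (columns, 1 array each). A cross marks a value not well above background, which was set to the higher of its own signal and the lowest measurable signal of that array. The HFHFr-F column is above control for most genes, and in HFHFr-FA most G1 and S phase genes are near or below control.

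The first question is what the diet did against untreated liver. In HFHFr-F, 12 of the 36 measurable genes (33.3%) were at least 2-fold higher than in control, where 5.41% of all 14632 genes were, and none was 2-fold lower (3.21% of all genes). The 36 include genes measured in HFHFr-F alone, which could only come out higher. Among the 29 measured on every array the median log2 ratio was 0.78, with all genes measured there at -0.10. The genes 2-fold higher were Ccnd1, Ccne1, E2f2, Mcm5 and Mcm6 of G1 and S phase, and Ccna2, Cdc20, Aurka, Birc5, Mki67, Prc1 and Cenpe of mitosis. With normexp background correction and quantile normalization, whose added offset of 50 shrinks the ratios of dim probes, 2 genes passed 2-fold and the median was 0.45, while the number over all genes went from 792 to 334.

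Among the G1 regulators, Ccnd1, the D cyclin that couples growth signals to cell cycle entry, was spotted 10 times on each array. Its signal was 1.63 in control, 3.56 in HFHFr-F, 1.97 in HFHFr-FA, 2.26 in HFHFr-N and 2.12 in HFHFr-NA. The SD over its spots was between 0.0785 and 0.234, so the HFHFr-F pool stood apart from the other 4 by more than the spot error. The log2 ratio of HFHFr-F to control was 1.13, and that of HFHFr-FA to HFHFr-F was -0.85. Ccnd2, a second D cyclin, moved little: 2.09, 2.62, 2.83, 2.31 and 1.93 in the same order of groups, with its highest value in HFHFr-FA.

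Ccne1, cyclin E1, which with Cdk2 starts DNA replication, measured 0.378 in control, 0.817 in HFHFr-F, 0.242 in HFHFr-FA, 0.931 in HFHFr-N and 0.749 in HFHFr-NA. It was high in HFHFr-F and in both pools returned to normal food and lowest in HFHFr-FA, a pattern unlike that of Ccnd1. A second Ccne1 probe, annotated to the same position, was not well above background on any array, at 0.0382 to 0.0571. By the brighter probe alone, the Ccne1 log2 ratio to control was 1.11 in HFHFr-F and 1.30 in HFHFr-N, and HFHFr-FA was at -1.75 to HFHFr-F.

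E2f1, the E2F activator best known for S phase entry, was at 0.191 in control, 0.376 in HFHFr-F, 0.0781 in HFHFr-FA, 0.227 in HFHFr-N and 0.134 in HFHFr-NA. The log2 ratio of HFHFr-FA to HFHFr-F was -2.27, with the HFHFr-FA signal close to the lowest measurable signal of that array, 0.0755. The dimmer E2f1 probe, with 10 spots, was well above background in HFHFr-F alone, at 0.097, which gives no check on the size or direction of these differences. For E2f2, another activator, the signals were 0.164, 0.349, 0.170, 0.236 and 0.174, highest in HFHFr-F and about level in control, HFHFr-FA and HFHFr-NA.

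The MCM subunits, which form the 6-part replicative helicase, did not move as 1 block. Mcm6, probed at chr1:130228178-130228237 on mm9, gave 1.93 in control, 5.93 in HFHFr-F, 1.92 in HFHFr-FA, 2.59 in HFHFr-N and 2.51 in HFHFr-NA. The HFHFr-F pool alone was high, 3.07-fold over control (log2 ratio 1.62), and HFHFr-FA was level with control. Mcm5, probed at chr8:77651350-77651410, gave 0.212, 0.527, 0.130, 0.298 and 0.178. That is 2.49-fold over control in HFHFr-F and a 4.05-fold difference between HFHFr-F and HFHFr-FA, where Mcm5 was at its lowest.

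Mcm2 and Mcm3 were also highest in HFHFr-F, followed by HFHFr-N, at smaller size. Mcm2 was at 0.292, 0.493, 0.263, 0.40 and 0.289, a log2 ratio of 0.76 for HFHFr-F to control. Mcm3 was at 0.604, 1.14, 0.632, 0.918 and 0.741, a log2 ratio of 0.92. Mcm4 (2.05, 2.05, 1.71, 2.26 and 1.72) and Mcm7 (3.66, 3.26, 3.42, 3.41 and 3.25) hardly differed between control and HFHFr-F, equal for Mcm4 and 1.12-fold lower in HFHFr-F for Mcm7. So 2 of the 6 subunits passed 2-fold, 2 came close and 2 were flat.

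The regulators of helicase loading differed from the helicase. Cdt1, the loading factor, measured 1.14, 0.988, 0.855, 1.30 and 1.31, lowest in HFHFr-FA. Gmnn, geminin, measured 8.93 in control, 12.6 in HFHFr-F, 5.93 in HFHFr-FA, 15.5 in HFHFr-N and 18.1 in HFHFr-NA. Geminin was thus highest in the pools returned to normal food, 2.03-fold over control in HFHFr-NA, and lowest in HFHFr-FA, with a log2 ratio of -1.08 to HFHFr-F.

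**Figure D3:**
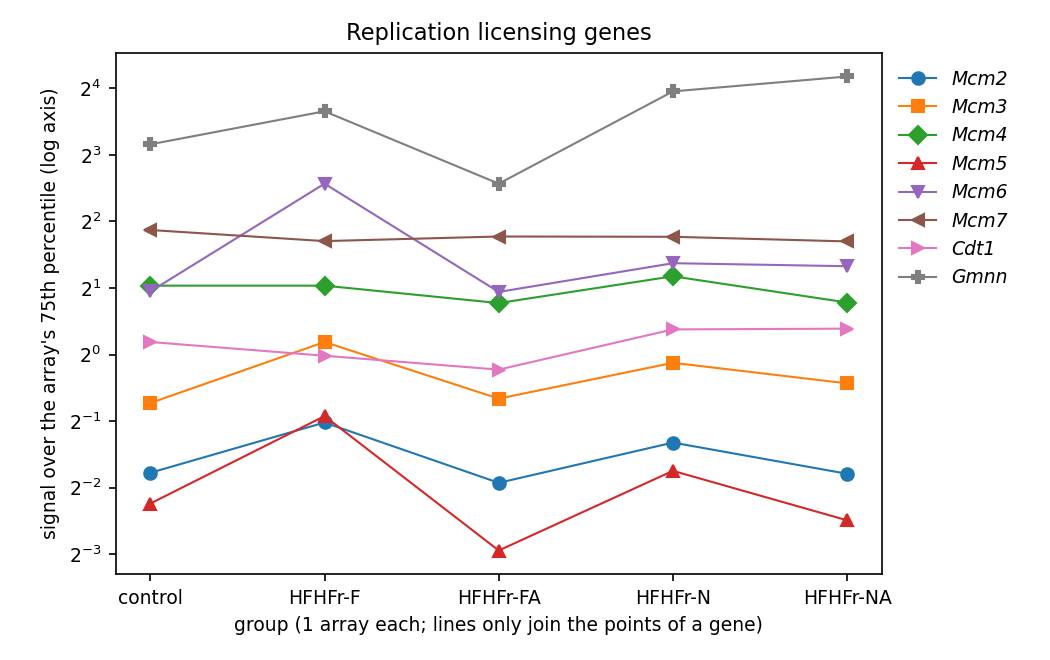
Signal relative to the 75th percentile of the array (y axis, log scale) of 8 replication licensing genes in the 5 groups (x axis, 1 array each, lines join the points of 1 gene). Mcm6 goes from 1.93 in control to 5.93 in HFHFr-F and 1.92 in HFHFr-FA while Mcm7 stays between 3.25 and 3.66; heights of different genes are not comparable.

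In DNA synthesis, Pcna, the sliding clamp of the DNA polymerases, was 10.9 in control and HFHFr-F, 8.73 in HFHFr-FA, 10.3 in HFHFr-N and 9.72 in HFHFr-NA. Its 10 spots had SDs of 0.248 to 0.627, and HFHFr-FA was the lowest pool, at a log2 ratio of -0.32 to control. Ribonucleotide reductase makes deoxynucleotides from a large subunit, Rrm1, and a small subunit, Rrm2. Rrm1 gave 1.18, 1.75, 1.03, 1.43 and 1.41. Rrm2 gave 0.206, 0.392, 0.133, 0.194 and 0.343, a log2 ratio of 0.93 for HFHFr-F to control and -1.56 for HFHFr-FA to HFHFr-F. Both subunits were highest in HFHFr-F and lowest in HFHFr-FA, but Rrm2 varied more.

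Tyms, thymidylate synthase, was at 3.79, 4.53, 2.67, 4.21 and 3.78, also lowest in HFHFr-FA. Tk1, the thymidine kinase of cycling cells, was at 2.73 in control, 4.2 in HFHFr-F, 3.39 in HFHFr-FA, 5.63 in HFHFr-N and 6.88 in HFHFr-NA. Like geminin, it was highest after the return to normal food, 2.06-fold over control in HFHFr-N and 2.52-fold in HFHFr-NA. Uhrf1, which carries DNA methylation through replication, was well above background in HFHFr-F alone, with both of its probes. Its HFHFr-F signal of 0.162 was at least 1.88-fold above control, whose own signal was 0.0187.

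Among the 25 mitosis genes, 11 were measured on every array and 7 on none. Mki67, the gene of the Ki-67 antigen that marks cycling cells, was probed at chr7:142881591-142881650 on mm9. Its signal was 0.140 in control, 0.469 in HFHFr-F, 0.324 in HFHFr-FA, 0.158 in HFHFr-N and 0.176 in HFHFr-NA. Both pools still on the diet were high, 3.35-fold over control in HFHFr-F and 2.32-fold in HFHFr-FA, and both pools on normal food were near control. A second Mki67 probe was not well above background on any array.

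Cenpe, a kinetochore motor, had the same order: 0.109, 0.262, 0.175, 0.113 and 0.142, 2.41-fold over control in HFHFr-F. Its other 2 probes were not well above background on any array. Cdc20, the activator of the anaphase-promoting complex, was at 0.200, 0.408, 0.233, 0.200 and 0.227. Aurka, the spindle pole kinase Aurora A, was at 0.242, 0.50, 0.306, 0.248 and 0.341. In both, HFHFr-F stood alone about 2-fold over control (2.04-fold and 2.07-fold), and HFHFr-N was at the control level.

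Birc5, survivin of the chromosomal passenger complex, gave 0.393 in control, 1.02 in HFHFr-F, 0.418 in HFHFr-FA, 0.556 in HFHFr-N and 0.699 in HFHFr-NA. It was the one mitosis gene more than 2-fold lower in HFHFr-FA than in HFHFr-F, at -1.29 log2 units. Cdca8, borealin of the same complex, gave 0.393, 0.740, 0.435, 0.486 and 0.353, also highest in HFHFr-F. Prc1, which bundles the microtubules of the central spindle, was measured in HFHFr-F, HFHFr-FA, HFHFr-N and HFHFr-NA at 0.231, 0.143, 0.116 and 0.124, and not in control. In HFHFr-F it was at least 2.43-fold over control.

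Cyclins and kinases of mitotic entry were near the detection limit. Ccna2, cyclin A2, was measured in HFHFr-F at 0.227 and in HFHFr-FA at 0.135 but not on the other arrays, at least 2.63-fold over control in HFHFr-F. Plk1, a polo-like kinase, was likewise measured in HFHFr-F at 0.171 and HFHFr-FA at 0.108 alone. Ccnb1, cyclin B1, went the other way: it was measured in HFHFr-FA alone, at 0.158, with 0.018 in control and 0.0187 in HFHFr-F, and it was at least 2.14-fold higher in HFHFr-FA than in HFHFr-F. Its other 2 probes were not well above background on any array, HFHFr-FA included, so the difference rests on 1 probe. Ccnb2, cyclin B2, was highest in HFHFr-F, at 0.266, 0.456, 0.371, 0.359 and 0.320. Cdk1 and Nusap1, a spindle protein, passed background in HFHFr-F alone, at 0.0868 and 0.0941, too near the limit for a difference.

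Cenpa, the centromeric histone, was at 0.140, 0.221, 0.173, 0.189 and 0.160. Cdca3, a trigger of entry into mitosis, was at 0.183, 0.263, 0.196, 0.193 and 0.201, and Kif20a, a kinesin of cytokinesis, at 0.233, 0.343, 0.250, 0.269 and 0.205. These 3 were highest in HFHFr-F, by 1.44-fold to 1.58-fold over control. Ube2c, the ubiquitin-conjugating enzyme of the anaphase-promoting complex, missed background in control alone, and its 4 other values lay between 0.122 and 0.158. Bub1, a spindle checkpoint kinase, was the exception, at 2.80, 2.34, 2.69, 2.88 and 2.50, lowest in HFHFr-F. Its other probe was not well above background on any array, so the Bub1 probes disagree on whether the gene was measurable.

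The next question is what all-trans retinoic acid did while the diet went on. Between HFHFr-FA and HFHFr-F, 9 of 37 measurable genes (24.3%) were 2-fold lower, against 2.85% of 14929 genes, and 1 was higher, Ccnb1 (2.72% of all genes were higher). The median log2 ratio was -0.70, with all genes at 0.03. Of the 9, 8 were among the 19 measurable G1 and S phase genes: Ccne1, E2f1, E2f2, Gmnn, Mcm5, Mcm6, Rrm2 and Uhrf1. Uhrf1 was measured in HFHFr-F alone and could only come out lower. Of the 33 genes measured on both arrays, 8 were 2-fold lower, against 2.50% of 13796 genes. Among 18 measurable mitosis genes, Birc5 alone was 2-fold lower, and their median was -0.49 against -0.85 for the G1 and S phase genes. The comparison shares the HFHFr-F array with the one above, so genes high on that array for any cause are high in one and low in the other. With normexp and quantile normalization, 2 genes were 2-fold lower and the median was -0.33, and over all genes 152 were lower in place of 426.

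Set against control, most mitosis genes of the set were higher in HFHFr-FA, while the G1 and S phase genes stood nearer to all genes. Of 18 G1 and S phase genes measured on all arrays, 13 (72.2%) were lower in HFHFr-FA than in control, where 59.1% of all genes were, and their median log2 ratio was -0.23 with all genes at -0.09. Of 11 mitosis genes, 1 was lower (9.09%), Bub1, and the median was 0.22. The other 10 lay between their control and HFHFr-F levels. Past 2-fold, 1 of 34 measurable genes (2.94%) was lower in HFHFr-FA than in control, against 1.95% of 14798 genes. It was E2f1, at a log2 ratio of -1.29, with its HFHFr-FA signal close to the lowest measurable one. Mki67 was the 1 higher (2.94%, against 4.48% of all genes), at 1.21. Both shares are near those of all genes. Mitosis genes outside the set, given below, had a median of -0.22 to control in HFHFr-FA, unlike the 11 here. Differences between roles were not tested, since there is 1 pool per group.

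**Figure D4:**
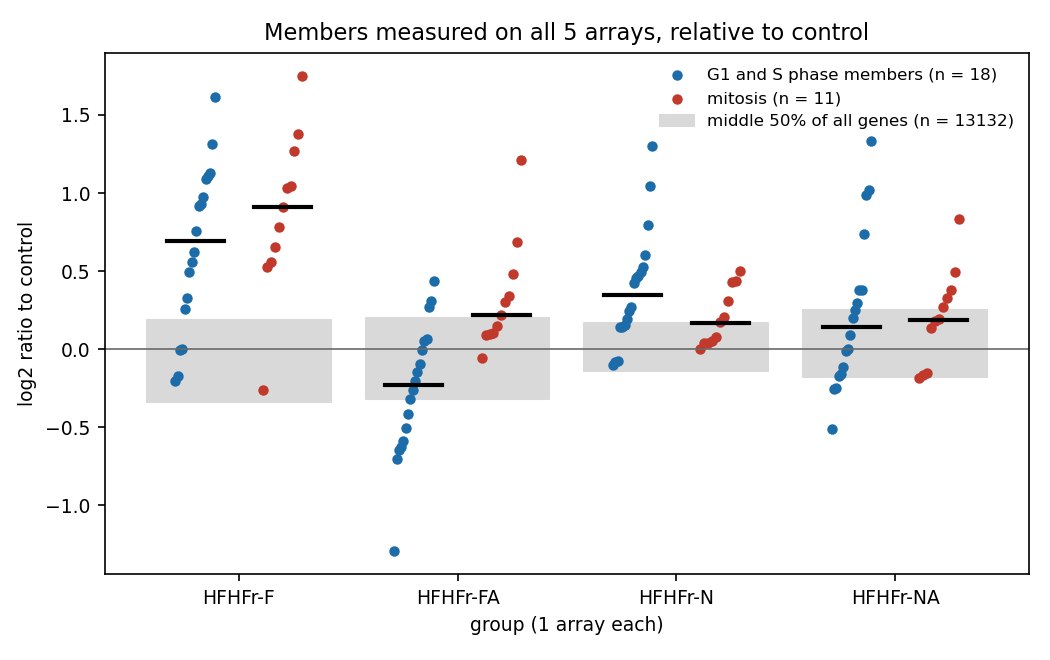
Log2 ratio to control (y axis) in the 4 treated groups (x axis, 1 array each) of the genes measured on all 5 arrays: 18 G1 and S phase genes (blue) and 11 mitosis genes (red), 1 point a gene, with medians as black bars and the middle 50% of 13132 genes in grey. In HFHFr-F both medians lie over the grey band (0.69 and 0.91); in HFHFr-FA they are -0.23 and 0.22.

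Return to normal food was compared with staying on the diet and with never having had it. In HFHFr-N, 9 of 36 genes (25.0%) were 2-fold lower than in HFHFr-F, where 3.65% of 14806 genes were, and none was higher (2.17% of all genes). The 9 were Mcm6, Rrm2, Uhrf1, Ccna2, Cdc20, Plk1, Aurka, Mki67 and Cenpe, so 6 were mitosis genes. Of these 9, Mcm6, Ccna2, Cdc20, Aurka, Mki67 and Cenpe were also 2-fold higher in HFHFr-F than in control. Both comparisons share the HFHFr-F array, so genes high on it for any cause come out low here. Uhrf1, Ccna2 and Plk1 entered through HFHFr-F alone and could only come out lower. Of the 31 genes measured on both arrays, 6 were 2-fold lower, 4 of them mitosis genes, against 3.03% of 13655 genes measured on both. With normexp and quantile normalization 1 gene was 2-fold lower (192 of all genes in place of 541), and the median went from -0.35 to -0.22. Against control, 2 of 31 genes (6.45%) were 2-fold higher in HFHFr-N, Ccne1 and Tk1, with 1.18% of 14511 genes higher, and none was lower (0.834% of all genes). The median of the G1 and S phase genes on all arrays was 0.35 over control in HFHFr-N, and that of the mitosis genes 0.17.

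Against control, HFHFr-NA had 2 of 31 genes (6.45%) 2-fold higher, Gmnn and Tk1, with 2.02% of 14728 genes higher, and none lower (1.44%). HFHFr-NA, with all-trans retinoic acid in the normal food, was also compared with HFHFr-N. None of the 31 measurable genes was 2-fold higher or lower in HFHFr-NA than in HFHFr-N, and the median was -0.08. Over 14881 genes 1.54% were higher and 1.35% lower, so a count of none in a set this small does not set it apart. By role, 14 of 18 G1 and S phase genes were lower in HFHFr-NA, with a median of -0.12. Of 13 mitosis genes 8 were higher, with a median of 0.09, and the median of all genes was 0.02. The largest differences were Rrm2, at a log2 ratio of 0.82, E2f1 at -0.76 and Mcm5 at -0.74. The ratios of HFHFr-NA to HFHFr-N and of HFHFr-FA to HFHFr-F share no array. E2f1 and Mcm5 were lower in the retinoic acid pool of both pairs, while Rrm2 was lower in one and higher in the other.

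The wider pathway was read from lists of genes outside the 46. Among 30 other S phase genes, 25 were measurable in HFHFr-F against control, 21 of them on both arrays. Of the 25, 1 was higher (4.0%, against 5.41% of all genes) and 1 lower (4.0%, against 3.21%). Their median log2 ratio was 0.10, much nearer to all genes than that of the G1 and S phase genes above. The higher gene was Chaf1a, large subunit of the histone chaperone CAF-1, at least 1.40 log2 units up. The lower gene was Mcm10, a replication initiation factor, at a log2 ratio of -1.33. Its signals were 79.6, 31.6, 43.6, 71.9 and 64.5, by far the brightest of the list. Whether its probe reports Mcm10 alone was not determined. Between HFHFr-FA and HFHFr-F, 22 of the 25 were measured on both arrays. None was higher (2.72% of all genes), the median was -0.64, and 3 were lower (12.0%, against 2.85% of all genes). These 3 included Chaf1a, at -1.53 or lower, and Chaf1b of the same chaperone, at -1.34, which measured 0.426, 0.599, 0.237, 0.483 and 0.715. Between HFHFr-NA and HFHFr-N, 2 of 24 were lower (8.33%, against 1.35% of all genes), Fen1 at -1.57 and Rfc3 at -1.07. Hells, measured in HFHFr-NA alone of these 2 pools, was the 1 higher (4.17%, against 1.54%).

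Of 40 other mitosis genes, 23 were measurable in HFHFr-F against control. Of the 23, 3 were higher (Cdca5, Incenp and Cenpf), where 5.41% of all genes were. Ccnf was the 1 lower, where 3.21% of all genes were. The median was 0.31, with all genes at -0.08. Cdca5 and Cenpf were measured in HFHFr-F but not in control and could only come out higher. For the 17 genes measured in both HFHFr-F and control the median was 0.13, with all genes measured there at -0.1. Between HFHFr-FA and HFHFr-F, 7 of 23 were lower (30.4%, against 2.85% of all genes), with a median of -0.62. Ccnf was the 1 higher (4.35%, against 2.72%). Both arrays measured 17 of the 23, and genes measured in HFHFr-F alone could only come out lower. Trip13, a checkpoint ATPase, had a log2 ratio of -1.96, and the kinetochore subunits Spc24 and Spc25 had -1.68 and -1.60. Against control, 5 of 19 of these genes were 2-fold lower in HFHFr-FA (26.3%, against 1.95% of all genes) and none higher (4.48%). Their median was -0.22, which is unlike the 11 mitosis genes above, and 15 of the 19 were measured on both arrays. Between HFHFr-NA and HFHFr-N, 3 of 21 were lower (14.3%, against 1.35% of all genes), namely Nek2, Kif4 and Smc2, and none was higher (1.54%). Nek2 and Kif4 were measured in HFHFr-N but not in HFHFr-NA and could only come out lower.

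Brakes of the cycle differed as well. Of 8 CDK inhibitor genes, 6 were measurable and 3 were 2-fold higher in HFHFr-F than in control, where 5.41% of all genes were. One of the 3, Cdkn3, was measured in HFHFr-F but not in control and could only come out higher. The median log2 ratio of the 6 was 0.89. For the 5 measured on both arrays it was 0.43, with all genes measured there at -0.1. Cdkn1a, p21, a target of p53, was at 0.618 in control, 3.97 in HFHFr-F, 5.18 in HFHFr-FA, 0.238 in HFHFr-N and 0.408 in HFHFr-NA. It was high in both pools on the diet and under control in both pools on normal food, with a log2 ratio of 2.68 for HFHFr-F to control and -4.06 for HFHFr-N to HFHFr-F. Cdkn2c, p18, was at 1.38, 3.51, 1.87, 2.14 and 2.76. Cdkn3, a phosphatase that acts on Cdk1 and Cdk2, was at 0.308 in HFHFr-F and not well above background in control or HFHFr-FA, at 0.0449 and 0.0362.

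Among 15 measurable genes of the RB, E2F and DREAM group, 1 was 2-fold higher in HFHFr-F (6.67%, against 5.41% of all genes). It was Rbl1 (p107), at 1.01, and the median of the 15 was -0.23. E2f8, an atypical repressor of E2F targets, was at 0.344, 0.225, 0.778, 0.267 and 0.294, highest in HFHFr-FA. Of 14 measurable growth signal genes, Myc and Jun were higher in HFHFr-F than in control (14.3%, against 5.41% of all genes), at 1.68 and 1.35. Egfr, the receptor of epidermal growth factor, was lower at -2.25, with signals of 63.6, 13.4, 45.2, 17.8 and 36.2. Of 11 measurable p53 and DNA damage genes, 2 were 2-fold higher in HFHFr-F (18.2%, against 5.41% of all genes), among them Btg2, an antiproliferative gene, at 1.62. Of 8 measurable cyclins and kinases outside the set, none passed 2-fold in HFHFr-F, and Ccng1, a p53 target, was the 1 that did in HFHFr-FA against HFHFr-F, at -1.22.

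Markers of other cell types differed between the same pools. Summed signal of 12 Kupffer cell and macrophage markers, all measured, was 96.5 in control, 177 in HFHFr-F, 176 in HFHFr-FA, 115 in HFHFr-N and 84.5 in HFHFr-NA. Lyz2 and Marco made up most of it. Of the 12 markers, 10 were above control in HFHFr-F and 2 below, with a median log2 ratio of 0.84. Not all markers of resident Kupffer cells rose: the log2 ratio was 0.13 for Clec4f, 0.05 for Vsig4, -0.57 for Cd163 and -0.87 for Timd4. Marco was at 1.13. Summed signal of the lipid-associated macrophage markers, 6 of 10 on all arrays and Fabp5 on none, was 25.6, 115, 35.8, 39.2 and 26.9, highest in HFHFr-F like most cell cycle genes. Spp1 was the largest part, and 7 of 9 measurable markers were 2-fold higher in HFHFr-F than in control, against 5.41% of all genes. Only 6 of the 9 were measured on both arrays, and those measured in HFHFr-F alone could only come out higher. Trem2, which defines these macrophages, was at 0.312, 5.81, 2.21, 0.649 and 1.24.

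Erythroid markers, 4 of 7 on all arrays with Epb42 and Ermap among those on none, summed to 361, 551, 228, 399 and 306, highest in HFHFr-F and lowest in HFHFr-FA. Hbb-b1 and Hba-a1 made up most of it. Alas2 was lower in HFHFr-F than in control (23.1 and 30.2), and Klf1 was highest in HFHFr-NA, at 0.795. Neutrophil and myeloid precursor markers, 1 of 8 on all arrays with Ngp, Ltf and Elane on none, summed to 1.98, 5.92, 11.1, 3.49 and 6.46, highest in HFHFr-FA. T and NK cell markers, 4 of 10 on all arrays with Cd3g, Cd4, Cd2 and Klrb1c on none, summed to 1.07, 1.44, 2.22, 1.09 and 1.28. Cholangiocyte markers, 3 of 7 on all arrays, summed to 1.58, 2.38, 1.81, 1.08 and 1.37, and stellate cell markers, 7 of 8, to 8.70, 16.3, 16.3, 10.6 and 12.0. B and plasma cell markers, 6 of 7 with Cd79a on none, summed to 31.8, 24.6, 23.1, 30.7 and 34.3. Sdc1 was most of that sum, at 29.5 in control and 17.8 in HFHFr-F, while Blnk was higher, at 0.673 and 5.34. Endothelial markers, 7 of 8, summed to 35.2, 25.9, 36.7, 37.1 and 30.0. Hepatocyte markers summed to 4210, 3440, 3620, 4070 and 4410, lowest in HFHFr-F. The part of these cells in the values above was not tested.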

How the data were processed

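Total liver RNA of 5 mice per group was pooled, labelled with Cy3 and hybridised to 1-colour Agilent arrays, 1 per group. Per the file headers, the authors extracted spot intensity values with Feature Extraction 10.5.1.1, and their processed signal is already background-subtracted. The deposited value table holds a ratio on a linear scale, found by setting it against the scanner values to be that intensity over a constant per array close to its 75th percentile, and served as an alternative. No source used here states how it was made. Here each processed intensity was divided by the 75th percentile of its array over non-control spots, outlier spots were left out, and spots of a probe were averaged on the log2 scale. The brightest probe stood for a gene. A comparison took in each gene that at least 1 of its 2 arrays measured well above background. Otherwise the dim side was set to the higher of its own signal and the lowest measurable signal of that array, and the fold is written "at least". With 1 array per group no test was possible, and a difference of 2-fold was counted. The code was tested on simulated data. Tools were Python 3.11.15, numpy 2.4.6, pandas 2.3.3, matplotlib 3.10.9, R 4.3.3 and limma 3.58.1. Probe positions are mm9, from the array annotation, and whether a probe lies in an exon or UTR was not determined. Values are given for the genes of the set that were 2-fold apart in a comparison and the brightest others of each role, and for the largest of the 2-fold differences in each pathway list; Cdk1, Nusap1, Ube2c and the marker Trem2 were named outside this rule. Genes, lists and comparisons were chosen with earlier results of these data known, and the 2 comparisons of HFHFr-FA and HFHFr-NA with control were added after seeing the data. The precision of a value is limited by the number of arrays. A few genes counted in the pathway and marker lists are not reported here by name.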

Additional observations from a re-analysis of the deposited data

How the results depend on the processing

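The counts and medians of the 46 genes were recomputed under 9 alternatives fixed with earlier results known. Of 1270 recomputed values, 1025 kept their size, 244 moved and 1 reversed: Cenpe in HFHFr-N against HFHFr-F was 0.08 when its 3 probes were averaged, 2 of which were not well above background. Normexp with quantile normalization gave 2 genes higher in HFHFr-F than in control (median 0.45), 0 higher and 2 lower in HFHFr-FA than in HFHFr-F (median -0.33), 0 higher in HFHFr-N than in control (median 0.15) and 1 lower in HFHFr-N than in HFHFr-F (median -0.22). A 1.5-fold threshold gave 23 higher in HFHFr-F (11.6% of all genes), 20 lower in HFHFr-FA against HFHFr-F (8.80%), 5 higher in HFHFr-N against control (4.48%), 15 lower in HFHFr-N against HFHFr-F (9.12%), and 1 higher (6.11%) and 2 lower (5.28%) in HFHFr-NA against HFHFr-N. Averaging probes gave a median of 0.63 in HFHFr-F, 0 higher in HFHFr-FA against HFHFr-F, and 1 higher in HFHFr-N against control (median 0.14). Requiring both arrays also left 0 higher in HFHFr-FA against HFHFr-F, since Ccnb1 was measured on 1 of the 2. Without the detection filter, 1 was lower in HFHFr-F, 4 higher and 1 lower in HFHFr-N against control, 1 higher in HFHFr-N against HFHFr-F and 3 lower in HFHFr-NA against HFHFr-N. Median scaling gave 1 higher in HFHFr-N against control, and a median of -0.46 in HFHFr-N against HFHFr-F. Cyclic loess gave medians of 0.97 in HFHFr-F against control and -0.47 in HFHFr-N against HFHFr-F. For other moves the cause was not tested.

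Over all genes, the share of 2-fold differences that were higher was 62.8% in HFHFr-F against control, and 74.2% with cyclic loess or 49.9% without the detection filter. It was 48.8% in HFHFr-FA against HFHFr-F, 35.4% with median scaling and 39.7% with cyclic loess. In HFHFr-N against HFHFr-F it was 37.3%, against 25.7% and 24.5%, and 54.9% without the detection filter. Median scaling shifted the median of all genes by -0.10 in HFHFr-FA against HFHFr-F and by -0.11 in HFHFr-N against HFHFr-F, and cyclic loess by 0.10 in HFHFr-F against control and by -0.11 in HFHFr-N against HFHFr-F. No replicate could be left out and no slide block could be fitted. No paired analysis was possible because each group was 1 array of pooled RNA. The lowest measurable signals were 0.0736 to 0.0863, and 9 of the 46 genes passed background on no array.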

Other observations

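Gadd45g, a stress-induced gene that can slow the cell cycle, was higher in the retinoic acid pool of both pairs. Its signal was 26.1 in control, 19.1 in HFHFr-F, 87.8 in HFHFr-FA, 12.4 in HFHFr-N and 51.0 in HFHFr-NA. The log2 ratio was 2.20 for HFHFr-FA to HFHFr-F and 2.04 for HFHFr-NA to HFHFr-N, comparisons that share no array. Egfr had the same direction, at 1.76 and 1.02, and Btg2 had 0.42 and 1.01. Brca2, a gene of recombination repair, was higher in both pools returned to normal food, at 0.472 and 0.512 against 0.211 in control, 0.278 in HFHFr-F and 0.181 in HFHFr-FA. Kif4, a chromosome-binding kinesin, was well above background in HFHFr-N alone, at 0.233. These genes were singled out after their values were seen.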
